A study of Mus musculus with 2 samples.

Results

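The genes of the gap and tight junctions described here were Gjb2, Gjb6, Gja1, Tjp1, Ocln, Marveld2 and Ildr1, 7 of the 48816 entries of the deposited gene list. They were chosen by symbol for what their proteins do, not by their values, although earlier results of these data were known. Each symbol stood on 1 entry. Gjb2, Gjb6 and Gja1 encode the connexins Cx26, Cx30 and Cx43, which form gap junction channels between neighbouring cells. Tjp1 encodes ZO-1, the plaque protein that ties junction proteins to the actin cytoskeleton, and Ocln encodes occludin, a membrane protein of tight junctions between pairs of cells. Marveld2 encodes tricellulin and Ildr1 encodes angulin-2, which sit where the corners of 3 cells meet.

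The stria vascularis (SV) is the epithelium of the cochlear lateral wall that makes the endocochlear potential, the positive voltage of the endolymph. Marginal cells face the endolymph and seal it with tight junctions, basal cells form a second sealed sheet towards the spiral ligament, and intermediate cells, which are melanocytes, lie between the sheets. Gap junctions join basal cells, intermediate cells and the fibrocytes of the spiral ligament, and carry potassium towards the marginal cells, which are not part of that network. Defects of GJB2, GJB6, MARVELD2 and ILDR1 are known causes of inherited hearing loss in people.

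Nuclei were isolated from the SV of CBA/J mice at postnatal day 30 and captured in 2 libraries. In MethFix the isolated nuclei were fixed in methanol, and in RNAlater the dissected tissue was kept in that reagent before the nuclei were isolated. Each library was described as 1 pool of mice, 5 in the methods and 5 to 6 in the labels for MethFix, and 6 and 10 for RNAlater. No treatment or mutation was applied, so the comparisons are between classes of nuclei within a library.

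The MethFix matrix held 4748 barcodes with 21027671 unique molecular identifiers (UMIs, counts of RNA molecules), 501 to 134970 per barcode with a median of 3469. The RNAlater matrix held 3868 barcodes with 17681824 UMIs, 506 to 41153 per barcode with a median of 3998.5. After filtering, 3420 and 2309 nuclei were kept. Of all barcodes, 3323 stood in both matrices, 70.0% of those of MethFix and 85.9% of those of RNAlater. Among the 2259 barcodes kept in both, between 80.0% (Gja1) and 90.5% (Gjb6) of the members' MethFix UMIs were counted for the same barcode and gene in RNAlater. The libraries were therefore read as 1 sample measured in 2 matrices, no test between classes or libraries was made, and agreement between them is not independent support. Which pool or preservation method the shared barcodes came from cannot be told from the counts. Intervals are exact 95% intervals, Poisson for UMIs and Clopper-Pearson for shares, and cover counting error only.

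Nuclei were sorted into 7 classes by clusters and their marker genes, with the junction genes left out of the clustering. MethFix and RNAlater held 1117 and 671 marginal, 868 and 522 intermediate, 747 and 592 basal, 72 and 69 root, 101 and 57 spindle, 156 and 154 Reissner and 18 and 9 Col1a1-rich nuclei. Root and spindle cells are epithelial cells at the edges of the SV, Reissner cells line the membrane above it, and Col1a1-rich nuclei carry genes of bone-forming cells. Every basal, root and Col1a1-rich marker was highest in its own class in both libraries, as were 5 of 6 marginal, 7 of 8 intermediate, 3 of 4 Reissner and 5 of 7 spindle markers. The exceptions were Eya4 for marginal, Pmel for intermediate, Oc90 for Reissner, and Slc26a4 and Dkk2 for spindle nuclei. Tyrp1, counted for intermediate nuclei, stood at only 0.29 and 0.35 CPM. The clusters were named from these same lists, and the basal list holds genes that led basal groups in earlier results of these data. These counts therefore describe the naming and are not independent support for it. Levels are given as UMIs per 1000000 UMIs of a class (CPM), and ratios between classes as log2 of CPM. Fewer nuclei with RNA of a gene and less RNA in each nucleus are not separated by CPM, so shares of nuclei with at least 1 UMI stand beside the levels.

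The connexin genes Gjb2 and Gjb6 were neighbours. On GRCm38 with the GENCODE M21 annotation, Gjb2 lay at chr14:57098600-57104702 and Gjb6 at chr14:57123303-57133611, both on the minus strand, with 18600 bases and 1 other gene model, Gm4491, between them. Ocln at chr13:100496507-100552718 and Marveld2 at chr13:100595957-100616971 were also on 1 strand, minus, with 43238 bases and 2 non-coding models between them. Ildr1 lay at chr16:36693978-36726804 and Gja1 at chr10:56377330-56402513, both on the plus strand. Tjp1 lay at chr7:65296165-65527781 on the minus strand and overlapped 3 gene models, Gm44794, Gm44795 and Gm44792. Gm44795 was on the other strand. Gm44794 and Gm44792 were on the same strand, so reads there could match more than 1 gene, and the effect on the Tjp1 counts was not tested. Marveld2 overlapped the small nuclear RNA Gm24261 on the other strand.

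The 250 bases before the RefSeq start are shown for the pair of neighbouring connexins and for the 2 genes of 3-cell corners. These pairs shared a location or a junction and yet differed in some classes. The patterns of Gjb2 and Gjb6 were otherwise much alike, with both highest in basal nuclei. They are from RefSeq on GRCm38.p6, read in the direction of the gene, at chr14:57104703-57104952 (minus), chr14:57133612-57133861 (minus), chr13:100616945-100617194 (minus) and chr16:36693728-36693977 (plus). Capitals mark GGGCGG, the GC box, and TATAAA, each on either strand.
Gjb2: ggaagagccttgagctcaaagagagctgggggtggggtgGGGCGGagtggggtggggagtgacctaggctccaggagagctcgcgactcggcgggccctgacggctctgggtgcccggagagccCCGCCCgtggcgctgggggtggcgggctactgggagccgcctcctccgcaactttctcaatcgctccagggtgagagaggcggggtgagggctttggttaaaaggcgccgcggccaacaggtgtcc
Gjb6: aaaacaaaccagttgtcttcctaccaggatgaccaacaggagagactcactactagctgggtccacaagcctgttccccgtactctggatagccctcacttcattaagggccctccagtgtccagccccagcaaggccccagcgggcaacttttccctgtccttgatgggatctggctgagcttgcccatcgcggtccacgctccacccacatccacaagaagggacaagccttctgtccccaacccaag
Marveld2: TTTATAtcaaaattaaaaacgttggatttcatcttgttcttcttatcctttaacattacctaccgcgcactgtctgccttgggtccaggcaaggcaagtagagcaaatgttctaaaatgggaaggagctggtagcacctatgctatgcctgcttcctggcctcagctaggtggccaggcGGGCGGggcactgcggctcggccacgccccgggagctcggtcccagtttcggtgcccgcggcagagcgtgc
Ildr1: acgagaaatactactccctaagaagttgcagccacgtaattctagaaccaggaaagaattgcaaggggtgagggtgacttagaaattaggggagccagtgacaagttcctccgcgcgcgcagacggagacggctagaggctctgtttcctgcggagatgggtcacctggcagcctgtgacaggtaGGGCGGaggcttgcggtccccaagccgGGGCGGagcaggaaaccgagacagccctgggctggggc

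The windows of the connexin pair differed in letters. That of Gjb2 had a GC content of 69.2% and held GGGCGG or its reverse complement CCGCCC at 2 places, while that of Gjb6 had a GC content of 56.8% and held neither. Over 32851 mouse windows of this length, the median GC content was 52.4%, and 32.7% held GGGCGG on either strand. Ildr1 held it at 2 places, Marveld2 and Ocln at 1 in each of their windows, Tjp1 at 2 and Gja1 at none. The Tjp1 window, chr7:65371245-65371494, lay inside the Tjp1 gene as placed by GENCODE M21. The printed Marveld2 window overlapped that gene in GENCODE M21, and a further Marveld2 window, chr13:100616972-100617221, is not printed. TATAAA or TTTATA was found only in the windows of Marveld2, against 12.4% of all windows. CACGTG (6.02% of all windows), CATGTG (12.3%), TCAAGGTCA (0.387%) and AACCGGTT (0.116%), each searched on both strands, were in none of the 9 windows of the 7 genes. A match or its lack describes these letters and was not tested as a binding site.

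Gjb2, which encodes Cx26, was highest in basal nuclei in both libraries. Its level there was 856 CPM (95% interval 816 to 896, 1799 UMIs) in MethFix and 943 (903 to 984, 2076 UMIs) in RNAlater. Intermediate nuclei followed at 141 (129 to 155) and 158 (144 to 174) CPM. The level in marginal nuclei was the lowest of the 7 classes, 32.3 CPM (27.4 to 37.8) in MethFix, and in RNAlater 32.3 (26.9 to 38.4). These values put basal nuclei 26.5-fold above marginal nuclei in MethFix, or 4.73 in log2 (4.49 to 4.98), and 29.2-fold in RNAlater, 4.87 (4.61 to 5.14). Basal nuclei were 6.05-fold above intermediate nuclei in MethFix, 2.60 (2.45 to 2.74) in log2, and 5.95-fold in RNAlater, 2.57 (2.43 to 2.72).

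The remaining classes were hard to order for Gjb2. Root nuclei stood at 136 (91.7 to 194, 30 UMIs) and 95.3 (61.0 to 142, 24 UMIs) CPM, spindle nuclei at 61.9 and 51.2, and Reissner nuclei at 47.9 and 69.6. Col1a1-rich nuclei rested on 5 UMIs in MethFix and 1 in RNAlater. In MethFix only the step from basal to intermediate nuclei had an interval without 0, and in RNAlater also the step from intermediate to root nuclei. The neighbours below these steps did not differ beyond their intervals.

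At least 1 Gjb2 UMI was found in 72.4% (69.1 to 75.6) of basal nuclei in MethFix and 87.0% (84.0 to 89.6) in RNAlater. In marginal nuclei, which should lack the gene, the shares were 12.4% (10.6 to 14.5) and 16.5% (13.8 to 19.6), with more UMIs per nucleus, a median of 4546 and 6087 against 2513 and 3443.5 in basal nuclei. With every nucleus thinned to 1000 UMIs, which left out 216 of 3079 nuclei of the classes in MethFix and 39 of 2074 in RNAlater, the shares were 52.7% and 58.0% in basal, 13.6% and 14% in intermediate and 3.66% and 2.85% in marginal nuclei. In MethFix the nuclei left out included 87 of 747 basal, 37 of 868 intermediate and 52 of 1117 marginal nuclei. The effect of this unequal loss on the thinned shares was not tested. The unthinned shares of spindle nuclei, 13.9% and 17.5% at median depths of 2453 and 3317 UMIs, had intervals that overlapped those of marginal nuclei, at a lower depth. In CPM, spindle nuclei were above marginal nuclei by 0.94 (0.12 to 1.66) in log2 in MethFix and 0.67 (-0.43 to 1.59) in RNAlater.

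Gjb6, which encodes Cx30, was also highest in basal nuclei, but its second class came closer. Basal nuclei held 869 CPM (830 to 910, 1828 UMIs) in MethFix and 941 (901 to 982, 2071 UMIs) in RNAlater. Intermediate nuclei held 468 (445 to 491, 1615 UMIs) and 459 (434 to 484, 1306 UMIs). The ratio of basal to intermediate nuclei was 1.86-fold in MethFix, 0.89 (0.80 to 0.99) in log2, and 2.05-fold in RNAlater, 1.04 (0.94 to 1.14). The interval of the same ratio for Gjb2 lay wholly above these.

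Root nuclei held Gjb6 at 317 CPM (247 to 401, 70 UMIs) in MethFix and 270 (210 to 342, 68 UMIs) in RNAlater. That was below intermediate nuclei and 4.36-fold and 5.27-fold above spindle nuclei, 2.12 (1.39 to 2.92) and 2.40 (1.43 to 3.52) in log2. Spindle nuclei held 72.8 and 51.2 CPM, Reissner nuclei 32.8 and 36.8, and marginal nuclei 24.9 (20.7 to 29.8) and 19.1 (15 to 23.9). The first 3 classes, basal, intermediate and root, each stood apart from the next in both libraries. Basal nuclei were 34.9-fold above marginal nuclei in MethFix, 5.12 (4.86 to 5.40) in log2, and 49.4-fold in RNAlater, 5.63 (5.29 to 5.98). Col1a1-rich nuclei had 3 and 0 UMIs, and 0 of 9 nuclei allows a share of nuclei with a UMI of up to 33.3% by a limit of 3 counts.

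Most basal and most intermediate nuclei had a Gjb6 UMI. The shares were 81.7% and 90.7% in basal, 78.2% and 91.2% in intermediate, 48.6% and 49.3% in root, and 9.85% and 10.4% in marginal nuclei. Thinned to 1000 UMIs they were 55.8% and 59.0%, 36.3% and 37.0%, 22.7% and 26.2%, and 2.44% and 1.35%. The unthinned shares of intermediate nuclei in RNAlater came with a median of 5445.5 UMIs a nucleus, against 3443.5 in basal nuclei, and the thinned shares put intermediate nuclei below basal nuclei in both libraries.

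**Figure D1:**
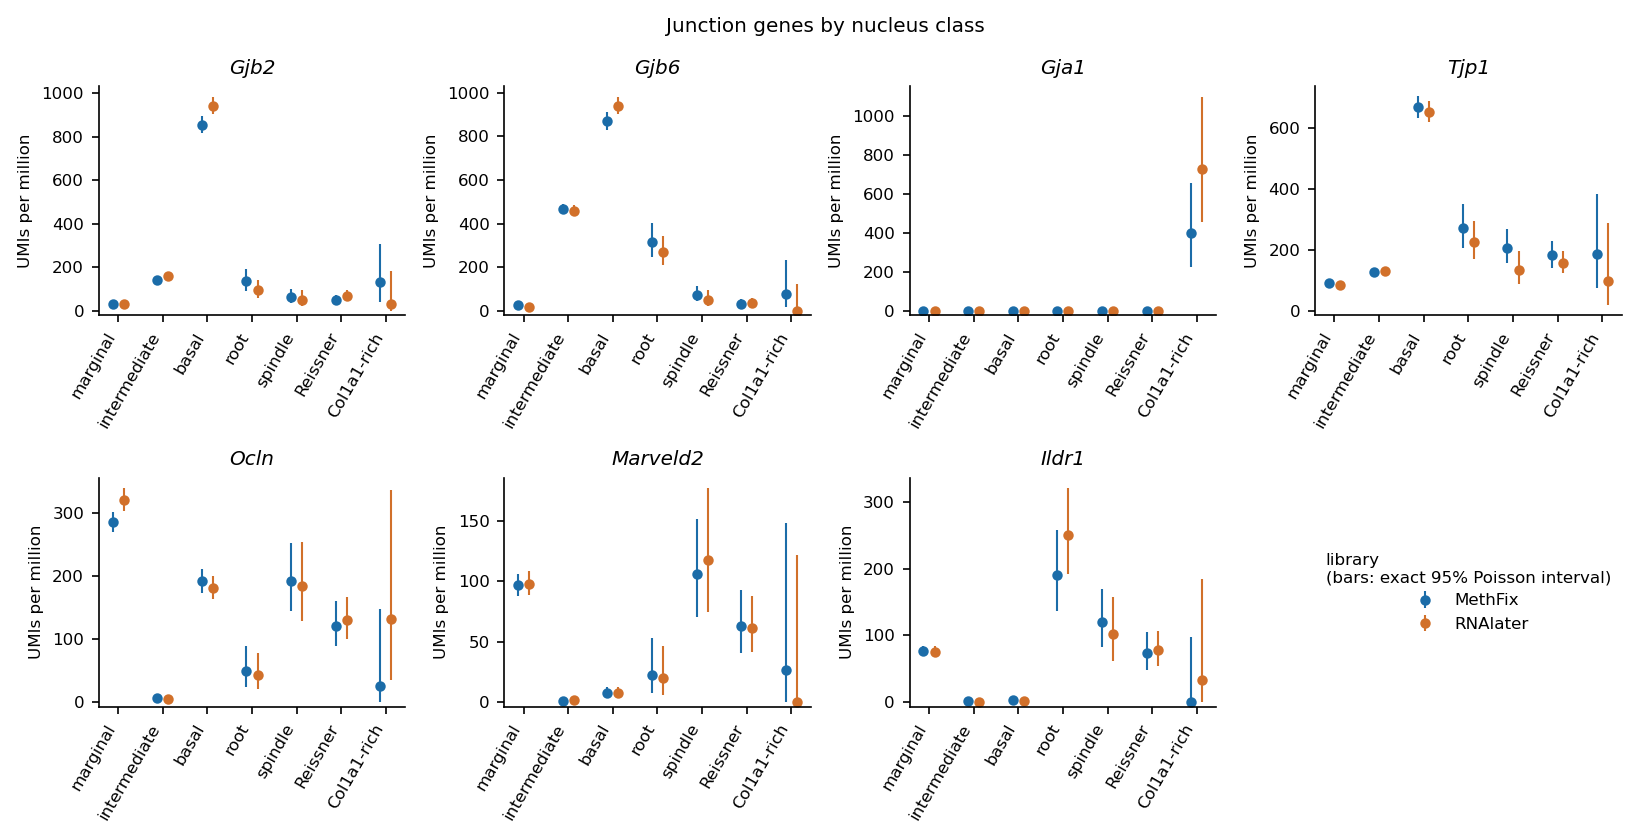
CPM (vertical axis, linear from 0, scaled for each gene) of the 7 junction genes in 7 classes of nuclei (horizontal axis), with MethFix in blue and RNAlater in orange and bars for the exact 95% Poisson interval. Among these classes, Gjb2, Gjb6 and Tjp1 peak in basal nuclei, Ocln in marginal nuclei, Ildr1 in root nuclei and Gja1 in Col1a1-rich nuclei, while the intervals of Marveld2 in spindle and marginal nuclei overlap.

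The balance of the 2 connexin genes differed between classes. It was taken as log2 of Gjb6 UMIs over Gjb2 UMIs, a ratio not corrected for gene length, so it is read only between classes. In basal nuclei it was 0.02 (-0.07 to 0.12) in MethFix, and in RNAlater -0.00 (-0.09 to 0.09). In intermediate nuclei it was 1.73 (1.58 to 1.88) and 1.53 (1.38 to 1.69). In root nuclei it was 1.22 (0.59 to 1.89) and 1.50 (0.81 to 2.24), so the intervals of intermediate and root nuclei overlapped and both lay above those of basal nuclei. The root class pooled clusters that are described below. In the root cluster led by Prss36 and Srgap1 the balance was 0.38 (-0.52 to 1.30) and 0.68 (-0.31 to 1.71), intervals that overlapped those of basal nuclei.

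The balance in marginal nuclei was -0.37 (-0.73 to -0.02) in MethFix, and in RNAlater -0.76 (-1.19 to -0.34), on 119 and 75 Gjb6 UMIs. The MethFix interval overlapped that of basal nuclei. Marginal nuclei should lack Gjb2, and the sign of their balance in MethFix depended on the barcode set, as given below. Spindle nuclei, at 0.23 (-0.77 to 1.26) and 0.00 (-1.42 to 1.42), and Reissner nuclei, at -0.55 (-1.69 to 0.55) and -0.92 (-1.83 to -0.05), had too few UMIs to place closely. Counted by nucleus, UMIs of both connexin genes were found in 477 of 747 basal nuclei in MethFix (63.9%) and 480 of 592 in RNAlater (81.1%). Intermediate nuclei had both genes in 29.8% and 51.9% and Gjb6 without Gjb2 in 48.4% and 39.3%. In basal nuclei Gjb6 without Gjb2 was found in 17.8% and 9.63%. These shares were not thinned, and median depths were 4043 and 5445.5 UMIs in intermediate against 2513 and 3443.5 in basal nuclei. A nucleus with Gjb6 and without a Gjb2 UMI is not shown to lack Gjb2 RNA, because low levels are often missed at this depth.

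**Figure D2:**
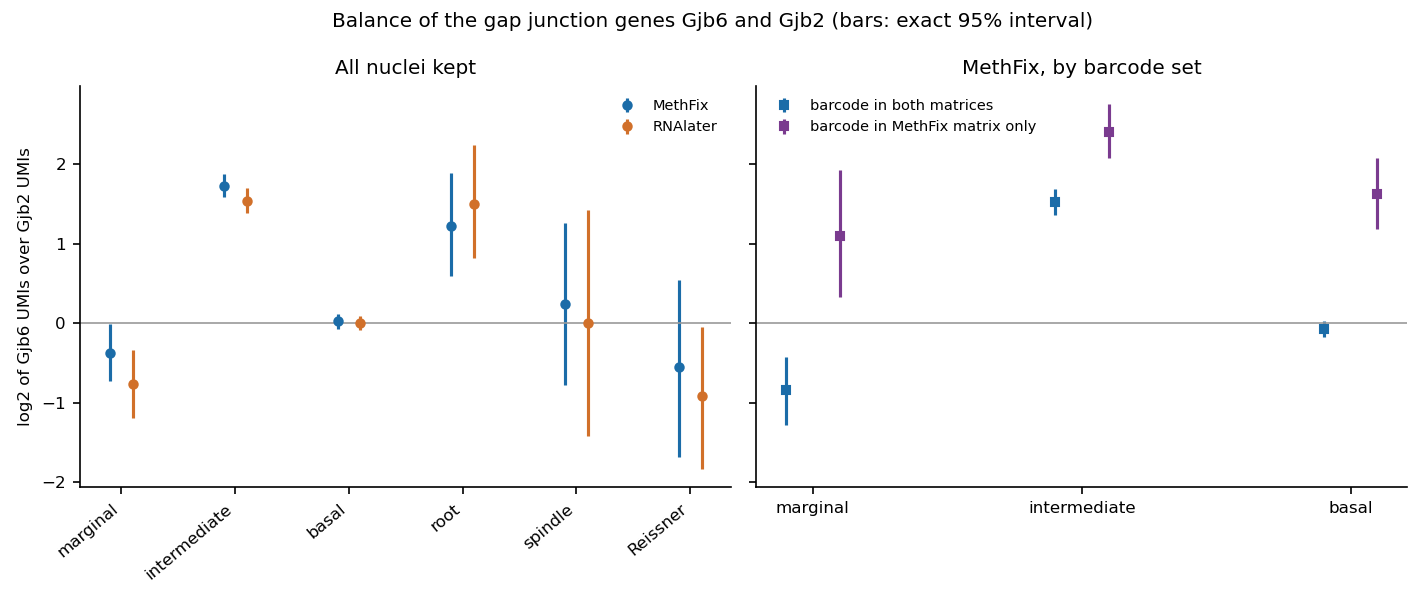
Log2 of Gjb6 UMIs over Gjb2 UMIs (vertical axis) by class of nuclei (horizontal axis), for all nuclei kept in each library at the left and for the MethFix nuclei split by barcode at the right, with bars for the exact 95% interval. Basal nuclei sit at 0.02 and -0.00 and intermediate nuclei at 1.73 and 1.53, while the basal nuclei whose barcode stood only in the MethFix matrix sit at 1.62.

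The levels of Gjb2 in MethFix depended on which barcodes were counted. Among basal nuclei, the 616 whose barcode stood in both matrices held 913 CPM on 1742 UMIs, and the 131 whose barcode stood in MethFix only held 291 on 57 UMIs, 3.14-fold less, a log2 ratio of 1.65 (1.27 to 2.06). Gjb6 in the same nuclei held 867 and 894 CPM, -0.04 (-0.27 to 0.19), and Tjp1 656 and 771, -0.23 (-0.48 to 0.02). The Gjb6 to Gjb2 balance of basal nuclei was thus -0.08 (-0.17 to 0.02) with and 1.62 (1.18 to 2.08) without a partner barcode. The MethFix-only nuclei were shallower, with a median of 1116 UMIs against 2848.5, and had more mitochondrial UMIs, a median of 2.13% against 0.986%. The part of depth and of mitochondrial UMIs in this difference was not tested.

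In the other large classes Gjb6 was lower in nuclei with a partner barcode, and Gjb2 was higher in intermediate nuclei. In intermediate nuclei Gjb2 held 152 CPM in the 558 nuclei with a partner barcode and 107 in the 310 without, 0.51 (0.17 to 0.86), while Gjb6 held 437 and 566, -0.37 (-0.53 to -0.21). In marginal nuclei Gjb6 held 19.1 and 50.5 CPM, -1.40 (-1.96 to -0.84), and Gjb2 34.3 and 23.6, 0.54 (-0.13 to 1.28). The balance in marginal nuclei was -0.85 (-1.28 to -0.43) with and 1.10 (0.32 to 1.92) without a partner barcode, so its sign depended on the barcode set. All 17 Gjb2 UMIs of spindle nuclei in MethFix came from barcodes in both matrices.

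**Figure D3:**
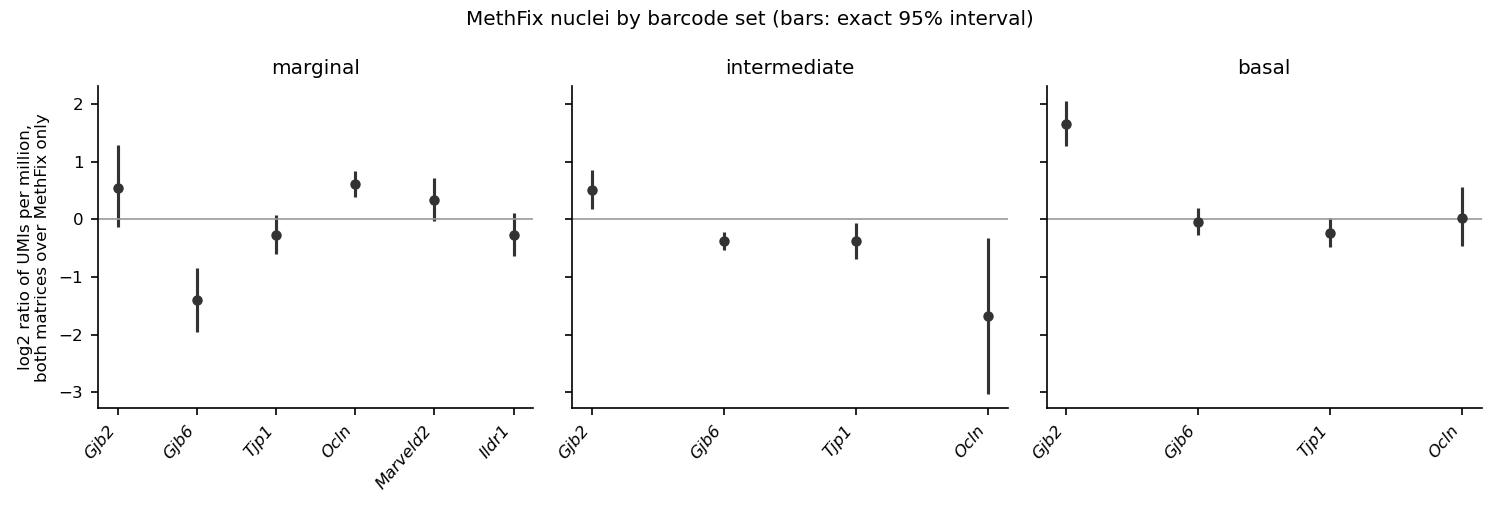
Log2 ratio of CPM between MethFix nuclei whose barcode stood in both matrices and those whose barcode stood in MethFix only (vertical axis, 0 for equal levels), for junction genes (horizontal axis) in marginal, intermediate and basal nuclei, with bars for the exact 95% interval. Gjb2 in basal nuclei stands at 1.65 and Gjb6 in marginal nuclei at -1.40, while Gjb6, Tjp1 and Ocln in basal nuclei have intervals that include 0.

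Gja1, which encodes Cx43, had few or no UMIs in the epithelial and pigment classes. Over all nuclei kept it had 32 UMIs in MethFix and 31 in RNAlater, of which 15 and 22 were in Col1a1-rich nuclei. The level there was 398 CPM (223 to 656) in the 18 nuclei of MethFix and 725 (455 to 1098) in the 9 of RNAlater. At least 1 UMI was found in 38.9% (17.3 to 64.3) and 88.9% (51.8 to 99.7) of these nuclei, and in 20.0% and 62.5% after thinning. Median depths were 1553.5 and 4158 UMIs, so the shares of the 2 libraries are not at like depth.

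Basal nuclei had 3 and 1 Gja1 UMIs, or 1.43 (0.294 to 4.17) and 0.454 (0.0115 to 2.53) CPM, and intermediate nuclei 1 UMI in each library. Marginal, root, spindle and Reissner nuclei had none. By a limit of 3 counts, 0 of 1117 and 0 of 671 marginal nuclei allow a share with a UMI of up to 0.269% and 0.447%, and 0 of 72 and 0 of 69 root nuclei up to 4.17% and 4.35%. These limit nuclei with a UMI and not nuclei that express the gene. No ratio between the SV classes is given because each was at or under 3 UMIs, and at this depth a level in them was not detectable above the few UMIs seen.

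Tjp1, the ZO-1 gene, was found in every one of the 7 classes and was highest among them in basal nuclei, although an unnamed cluster led by Tenm2 and Cdh6 (38 and 36 nuclei) held more, 975 (778 to 1207) and 893 (722 to 1091) CPM. Basal nuclei held 667 CPM (632 to 703, 1402 UMIs) in MethFix and 653 (619 to 687, 1437 UMIs) in RNAlater. Root nuclei held 272 (207 to 350) and 226 (171 to 293), Reissner nuclei 181 and 156, and spindle nuclei 207 and 133. Intermediate nuclei held 127 (116 to 140) and 131 (118 to 145), and marginal nuclei 90.1 (81.8 to 99.0) and 83.6 (74.8 to 93.1). Marginal nuclei had the lowest Tjp1 level of the 7 classes in both libraries, below intermediate nuclei by -0.50 (-0.69 to -0.30) and -0.64 (-0.86 to -0.43) in log2. In RNAlater the Col1a1-rich nuclei, on 3 UMIs, stood between them.

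Basal nuclei exceeded marginal nuclei in Tjp1 7.40-fold in MethFix, 2.89 (2.73 to 3.05) in log2, and 7.81-fold in RNAlater, 2.97 (2.79 to 3.14). They exceeded intermediate nuclei 5.24-fold and 4.99-fold, 2.39 (2.23 to 2.55) and 2.32 (2.15 to 2.49). Root and spindle nuclei differed by 0.39 (-0.16 to 0.94) in MethFix, and in RNAlater 0.77 (0.07 to 1.49), an interval that includes 0 in the first and not in the second. At least 1 Tjp1 UMI was found in 69.9% and 76.7% of basal, 35.1% and 45.2% of intermediate and 28.6% and 34.6% of marginal nuclei, and after thinning in 42.1% and 40.8%, 11.7% and 12.1%, and 7.79% and 9.90%. No class is known to lack the gene, so no background share is given.

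Basal nuclei were not uniform for Tjp1. They fell into several clusters, and the one led by Sorcs3 and Col27a1, with 215 nuclei in MethFix and 198 in RNAlater, held Tjp1 at 448 (389 to 513) and 416 (365 to 472) CPM. The other 532 and 394 basal nuclei held 729 (688 to 771) and 737 (696 to 780), log2 ratios of -0.70 (-0.92 to -0.49) and -0.83 (-1.03 to -0.62). Gjb2 and Gjb6 were closer between the same nuclei. Gjb6 differed by -0.09 (-0.26 to 0.07) and -0.12 (-0.27 to 0.02) and Gjb2 by -0.18 (-0.35 to -0.01) and -0.10 (-0.25 to 0.04). Ocln differed by -0.50 (-0.90 to -0.12) and -0.28 (-0.64 to 0.06). The clusters were made from other genes of the same nuclei, so these values are a description of the clusters and not a test of them. Sorcs3 and Col27a1 are themselves on the basal marker list. The cluster scored 4.38 and 4.63 for that list and next 3.08 and 2.95 for the fibrocyte list, which was also second in the other basal clusters, at 1.72 to 2.74. Whether its nuclei are basal cells was not tested.

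Ocln, the occludin gene, had its highest level among the 7 classes in marginal nuclei, although the few nuclei with endothelial markers held more, 477 CPM (192 to 984, 7 UMIs) in 10 nuclei of MethFix and 756 (363 to 1391, 10 UMIs) in 6 of RNAlater. Marginal nuclei held 286 CPM (271 to 302, 1366 UMIs) in MethFix and 322 (304 to 340, 1267 UMIs) in RNAlater. Basal nuclei held 193 (174 to 212) and 182 (165 to 201) and spindle nuclei 193 (144 to 252) and 184 (129 to 255), which could not be told apart. Reissner nuclei held 121 and 131, root nuclei 49.8 and 43.7 on 11 UMIs in each library, and intermediate nuclei 6.38 (4.00 to 9.65) and 5.62 (3.21 to 9.13). The ratio of basal to marginal nuclei was -0.57 (-0.74 to -0.41) and -0.82 (-0.99 to -0.66) in log2.

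Both sealed sheets stood far above intermediate nuclei for Ocln. Marginal nuclei exceeded them 44.9-fold and 57.3-fold, 5.49 (4.88 to 6.17) and 5.84 (5.13 to 6.65) in log2, and basal nuclei 30.2-fold and 32.4-fold, 4.92 (4.30 to 5.61) and 5.02 (4.30 to 5.84). At least 1 Ocln UMI was found in 61.9% and 80.5% of marginal and 36.9% and 43.9% of basal nuclei. Intermediate nuclei, which as melanocytes should lack occludin, had one in 2.30% and 2.87%, at median depths of 4043 and 5445.5 UMIs. After thinning the shares were 22.4% and 28.8%, 15.8% and 16.5%, and 0.361% and 0.383%. In MethFix, marginal nuclei with a barcode in both matrices held 306 CPM and the others 201, 0.61 (0.38 to 0.84), and basal nuclei 193 and 189. Intermediate nuclei held 4.19 and 13.4 CPM on 11 UMIs in each set, -1.67 (-3.02 to -0.33), so their low level also differed between the barcode sets.

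The genes of 3-cell corners followed marginal rather than basal nuclei. Marveld2, the tricellulin gene, stood at 96.6 CPM (88.0 to 106, 461 UMIs) in marginal nuclei of MethFix and 97.8 (88.3 to 108, 385 UMIs) of RNAlater. Basal nuclei held 8.08 (4.71 to 12.9) and 7.72 (4.50 to 12.4) on 17 UMIs in each library, and intermediate nuclei 0.869 and 2.11 on 3 and 6 UMIs. The basal to marginal ratio was -3.58 (-4.37 to -2.88) and -3.66 (-4.46 to -2.96) in log2. The marginal to intermediate ratio was 6.80 (5.24 to 9.08) and 5.54 (4.40 to 6.99).

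Spindle nuclei held Marveld2 at 106 (70.7 to 152) and 118 (74.6 to 177) CPM, and did not differ from marginal nuclei beyond the interval, 0.13 (-0.47 to 0.67) and 0.27 (-0.41 to 0.87). Reissner nuclei stood lower at 63.0 and 61.4, -0.62 (-1.26 to -0.04) and -0.67 (-1.26 to -0.13) against marginal nuclei. Root nuclei rested on 5 UMIs in each library, 22.7 and 19.8 CPM, and were below spindle nuclei by -2.22 (-3.95 to -0.83) and -2.57 (-4.32 to -1.14). At least 1 UMI was found in 30.0% and 37.7% of marginal, 2.28% and 2.70% of basal and 0.346% and 1.15% of intermediate nuclei, and after thinning in 8.26% and 8.25%, 1.06% and 0.858%, and 0.120% and 0.192%.

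Ildr1, the angulin-2 gene, was highest among the 7 classes in root nuclei, while an unnamed cluster led by RP23-416J8.1 (14 and 13 nuclei) held 372 (227 to 574) and 427 (274 to 635) CPM. Root nuclei held 190 CPM (137 to 257, 42 UMIs) in MethFix and 250 (192 to 320, 63 UMIs) in RNAlater. The root class pooled clusters whose Ildr1 values are given below. Spindle nuclei held 120 (82.7 to 169) and 102 (62.5 to 158), marginal nuclei 76.5 (68.8 to 84.8) and 75.7 (67.3 to 84.8), and Reissner nuclei 73.1 and 77.8. Root and spindle nuclei differed beyond the interval only in RNAlater, 0.66 (-0.03 to 1.37) against 1.29 (0.54 to 2.09). Marveld2 and Ildr1 were thus not matched in root nuclei, where Marveld2 was below and Ildr1 above the level of marginal nuclei in both libraries.

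Basal and intermediate nuclei had few Ildr1 UMIs, 8 and 6 in basal and 5 and 3 in intermediate nuclei. Their levels were 3.80 (1.64 to 7.50) and 2.73 (1.00 to 5.93) CPM, and 1.45 (0.470 to 3.38) and 1.05 (0.217 to 3.08). Basal nuclei were below marginal nuclei by -4.33 (-5.55 to -3.34) and -4.80 (-6.25 to -3.66) in log2, and the basal to intermediate ratio, 1.39 (-0.40 to 3.35) and 1.37 (-0.86 to 4.00), had intervals that include 0. At least 1 UMI was found in 41.7% and 47.8% of root, 26.5% and 33.1% of marginal, 1.07% and 1.01% of basal, and 0.576% and 0.575% of intermediate nuclei. After thinning, marginal nuclei had 8.08% and 6.75% and root nuclei 15.2% and 30.8%.

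The root class was made of 2 clusters in each library. The first was led by Prss36 and Srgap1, and the second had Lgr5 and Rspo2 among its leading genes, and values are given in that order. In MethFix the first held 38 nuclei with Ildr1 at 262 (173 to 381) CPM and Gjb6 at 252 (165 to 370), and the second held 34 nuclei with 127 (71.4 to 210) and 374 (272 to 502). Gjb2 stood at 194 (119 to 300) and 85.0 (40.8 to 156) in them. In RNAlater, 32 nuclei held Ildr1 at 329 (227 to 462), Gjb6 at 239 (153 to 356) and Gjb2 at 150 (83.7 to 247), and 37 nuclei 198 (133 to 282), 290 (211 to 389) and 59.3 (27.1 to 113). The balance of Gjb6 over Gjb2 in the 2 clusters was 0.38 (-0.52 to 1.30) and 2.14 (1.13 to 3.29) in MethFix, and 0.68 (-0.31 to 1.71) and 2.29 (1.24 to 3.51) in RNAlater. Every one of these intervals overlapped that of the other cluster of its library. Such overlap does not show that the 2 clusters are alike, because no interval was computed for the difference between them. The Ildr1 interval of the first cluster lay above that of spindle nuclei, 120 (82.7 to 169) and 102 (62.5 to 158) CPM. That of the second cluster overlapped it in both libraries. The paper saw Lgr5 RNA in the outer sulcus as well as in root cells. Whether all nuclei of these clusters are root cells was not tested.

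Counted against all genes, the members were unevenly spread. A gene was counted as higher where its CPM was at least 2-fold higher in both libraries, among genes with at least 50 UMIs over the 2 classes in each. A gene low in 1 class can pass this limit through the other class alone. Marveld2 and Ildr1 passed through marginal nuclei alone, and Ocln passed against intermediate nuclei through marginal or basal nuclei alone. For root against spindle nuclei, Gjb6 passed through root nuclei alone. Basal above marginal nuclei held 3 of 6 members compared (Gjb2, Gjb6, Tjp1) against 14.2% of 9633 genes, and marginal above basal nuclei 2 of 6 (Marveld2, Ildr1) against 16.6%. Basal above intermediate nuclei held 3 of 4 (Gjb2, Tjp1, Ocln) against 14.2% of 8968 genes, and intermediate above basal nuclei 0 of 4 against 12.3%. Marginal above intermediate nuclei held 3 of 6 (Ocln, Marveld2, Ildr1) against 14.8% of 9778 genes, and intermediate above marginal nuclei 2 of 6 (Gjb2, Gjb6) against 11.6%. Root above spindle nuclei held 1 of 3 (Gjb6) against 11.3% of 1786 genes, and spindle above root nuclei 0 of 3 against 10.2%. Gja1 entered none of these comparisons. For basal against intermediate nuclei, Marveld2 and Ildr1 were also left out, being under the limit of 50 UMIs. For root against spindle nuclei, Gjb2, Ocln and Marveld2 were also left out, being under the limit of 50 UMIs in at least 1 library. Their log2 ratios of root to spindle nuclei were 1.14 and 0.90 for Gjb2, -1.95 and -2.08 for Ocln and -2.22 and -2.57 for Marveld2. The count of 0 for spindle above root nuclei therefore does not cover Ocln and Marveld2, which were higher in spindle nuclei. With so few members these counts describe the list and were not tested.

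Median log2 ratios of the members compared were 1.16 and 1.07 for basal against marginal nuclei, where the median of all genes was -0.13 in both libraries. For basal against intermediate nuclei they were 2.49 and 2.45 beside -0.01 and -0.05 for all genes, for marginal against intermediate nuclei 2.50 and 2.45 beside 0.13 and 0.09, and for root against spindle nuclei 0.66 and 1.29 beside -0.00 and -0.01. The medians for basal against marginal and for marginal against intermediate nuclei lie between members of opposite sign and describe no shared shift. The median for basal against intermediate nuclei covers Gjb2, Gjb6, Tjp1 and Ocln only, and leaves out Marveld2 and Ildr1. Its ratios ran from 0.89 for Gjb6 to 4.92 for Ocln in MethFix, and from 1.04 to 5.02 in RNAlater. The median for root against spindle nuclei covers Gjb6, Tjp1 and Ildr1 only, and leaves out Ocln and Marveld2, whose ratios were negative.

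Other connexins were scarce. Of 20 connexin genes, 3 had at least 20 UMIs in 1 class of each library, Gjb2, Gjb6 and Gjc3, and none of the 3 pannexins did. Gjc3, which encodes Cx29, stood at 363 and 358 CPM in intermediate, 213 and 235 in basal and 5.66 and 1.78 in marginal nuclei. All 3 connexins were higher in basal and in intermediate than in marginal nuclei, beside 14.2% and 11.6% of all genes. Gjc3 was the one whose level in intermediate nuclei was above that in basal nuclei, by less than 2-fold.

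Of 17 plaque protein genes compared, Tjp1 included, 4 were higher in basal than in marginal nuclei and 7 were lower, beside 14.2% and 16.6% of all genes. Against intermediate nuclei 3 of 15 were higher and 1 lower, beside 14.2% and 12.3%. Cgnl1, which encodes paracingulin, stood at 489 and 524 CPM in marginal against 197 and 198 in basal nuclei. Magi2, which encodes a scaffold protein with PDZ domains, showed the reverse, at 14 and 13.5 against 802 and 843. Mllt4, the afadin gene, was highest in spindle nuclei, at 844 and 676 CPM, and Pard3, a polarity gene, ranged from 323 to 684 CPM in MethFix and from 322 to 857 in RNAlater over the 7 classes.

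Of 6 MARVEL and angulin genes compared, 4 were higher in marginal than in basal nuclei, beside 16.6% of all genes, and 1 was lower, beside 14.2%. Of these, Marveld2 and Ildr1 are members described above. Lsr, which encodes angulin-1, stood at 39.2 and 38.4 CPM in marginal against 1.90 and 2.27 in basal nuclei, and Marveld3 at 31.4 and 31.8 against 1.43 and 0.908. Marveld1, another MARVEL gene, was the one higher in basal nuclei, at 165 and 168 against 8.17 and 6.10 CPM. In intermediate nuclei Lsr, like Ildr1, was low, at 2.90 and 2.81 CPM.

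Adhesion molecules and claudins had members on either side. Of 4 adhesion genes compared, Jam2 and Jam3 were higher in basal and F11r and Cxadr in marginal nuclei, beside 14.2% and 16.6% of all genes. Jam2 was higher still in intermediate nuclei, at 234 and 240 CPM against 33.3 and 32.7 in basal nuclei. Jam3 stood at 170 and 182 CPM in basal against 1.47 and 0.508 in marginal nuclei, the last on 2 UMIs, and F11r, which encodes JAM-A, at 83.2 and 90.9 in marginal against 5.23 and 4.09. Of 37 claudin genes 7 had at least 20 UMIs in 1 class of each library. Of 6 compared, 1 (Cldn11) was higher in basal and 3 (Cldn3, Cldn7 and Cldn9) in marginal nuclei, beside the same 14.2% and 16.6%. Cldn11, the claudin that seals the basal layer, stood at 1232 and 1296 CPM in basal against 82.2 and 77.7 in marginal nuclei, Cldn9 at 140 and 145 in marginal against 20.4 and 23.6 in basal nuclei, and Cldn14 at 462 and 374 in spindle and 340 and 357 in root nuclei.

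**Figure D4:**
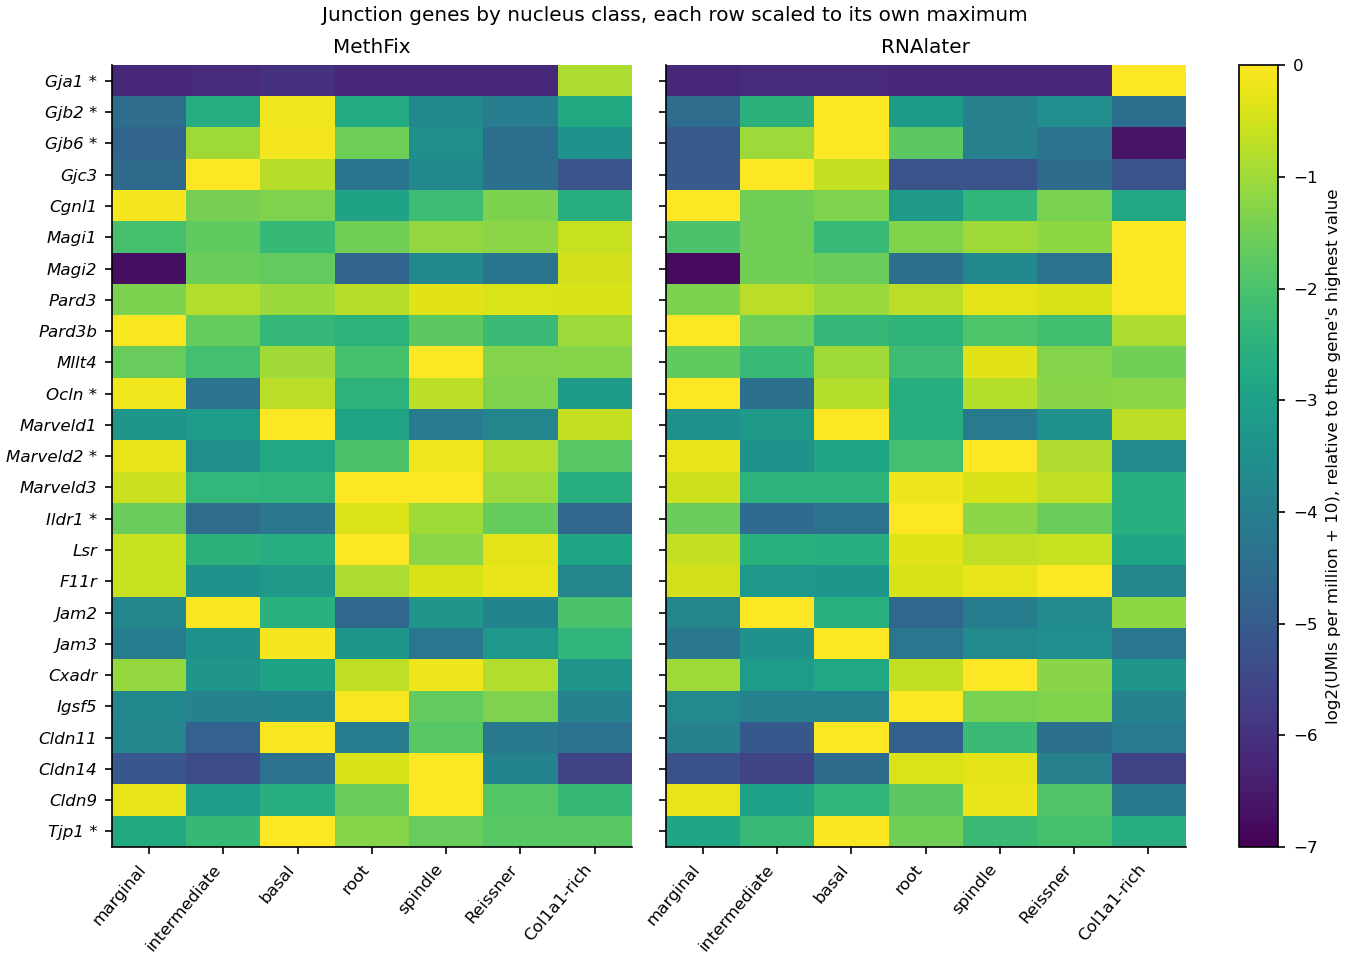
Log2 of CPM plus 10 for junction genes (rows, the 7 members with an asterisk) in 7 classes of nuclei (columns) of MethFix and RNAlater, each row set relative to its own highest value over both libraries (colour scale from 0 down to -7). Gjb2, Gjb6, Tjp1, Marveld1, Jam3 and Cldn11 are brightest in basal nuclei, and Marveld2, Cgnl1, Pard3b, Cldn9 and Ocln are bright in marginal nuclei.

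The genes whose pattern over classes was most like that of each member were ranked by Pearson's r of log2(CPM + 10) over 14 points, the 7 classes in both libraries, among 11048 genes (11049 for Gja1). The points share nuclei through the common barcodes and the total UMIs of a class, so r is a description. For Gjb2 they were Rhoj (0.963), Ahcyl2 (0.954) and Klf3 (0.941), with Tjp1 at rank 25 (0.892) and Gjb6 at rank 54 (0.875). For Gjb6 they were Mcc (0.930), RP23-57C9.2 (0.907) and Crlf2 (0.903), with Gjb2 at rank 11 (0.875). For Tjp1 they were Clu (0.965), Scara3 (0.949) and Serpine2 (0.939).

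For the other members, the leading genes included Nxn (0.914) and Rps6ka2 (0.913) for Ocln, and were Rabep1 (0.981), Frem1 (0.950) and Ror1 (0.946) for Marveld2. For Ildr1 they were Efnb2 (0.962), Lemd1 (0.949) and Il17re (0.947). For Gja1, which rests on 1 small class, they were Bglap (0.999), Phex (0.998) and Fat3 (0.997). Between the tight junction genes, r was 0.609 for Ocln and Marveld2, 0.631 for Marveld2 and Ildr1 and 0.409 for Ocln and Ildr1. Tjp1 had an r of 0.076 with Ocln, -0.291 with Marveld2 and -0.252 with Ildr1.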

How the data were processed

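Single-nucleus libraries were made with the 10x Genomics Chromium Single Cell 3′ V2 kit. What the authors deposited was a raw UMI count for every gene and barcode, 1 matrix a library, from Cell Ranger 3.0.1 run with default settings on mm10 (GRCm38). No normalization was applied to the deposited counts, and the submitters' processing notes also name Scanpy 1.4.5.

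From these counts, nuclei with at least 200 genes, at most 8000 UMIs and at most 10% mitochondrial UMIs were kept, which left 3596 in MethFix and 2329 in RNAlater, and Scrublet (expected rate 0.1) then removed 176 (4.89%) and 20 (0.859%) doublets. Nuclei were clustered with scanpy 1.11.5 and leidenalg 0.10.2 on 4000 variable genes, 30 principal components and 10 neighbours, at resolutions of 1 and 1.5, without the junction genes. Clusters that scored at least 3 for both the Col1a1-rich and the fibrocyte list were clustered again at a resolution of 0.5. The Col1a1-rich class came from such a split in both libraries. Clusters were named from marker lists, by scores whose rules were set after the clusters had been seen. UMIs were summed per class, and intervals of a log2 ratio came from the conditional binomial distribution.

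The members, the gene lists and the markers were chosen with earlier results of these data known. All 7 members are named. Of each list, at most 6 genes with the most UMIs and at least 20 UMIs in 1 class of each library are named with values. The 3 genes most like each member are named, except 1 that is not reported here. No p-value is given because each method is 1 library and the libraries share barcodes. The counting code was tested on simulated data. The fewest nuclei stand behind the Col1a1-rich, root and spindle values. Alternatives were edgeR 4.0.16 TMM factors, other filters, resolutions, totals and barcode sets, and, chosen after seeing the data, counting the cluster led by RP23-416J8.1 as root. The code ran under R 4.3.3 and Python 3.11.15 with scipy 1.17.1, numpy 2.4.6, matplotlib 3.10.9 and pandas 2.3.3. The RefSeq promoter table matched all 7 genes, with 9 windows, and gene positions are those of GENCODE M21, in which 3 of the 7 identifiers carry another version number than in the deposited list.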

Additional observations from a re-analysis of the deposited data

How the results depend on the processing

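Alternatives were run for 36 log2 ratios: basal to marginal and root to spindle for Gjb2, Gjb6, Tjp1, Ocln, Marveld2 and Ildr1, basal to intermediate for Gjb2 and Gjb6, and marginal to intermediate for the other 4. Other ratios in the text were not rerun. Of 384 alternative values, 370 stayed within the interval of the value reported and 14 moved outside it. Of ratios whose reported interval excluded 0, 0 changed sign, and for the others a change of sign was not counted. With the barcodes found in the MethFix matrix alone, the 1 alternative on nuclei without a partner barcode, 8 of 12 values moved. With only the barcodes found in the MethFix matrix alone, Gjb2 fell to 3.63 for basal to marginal and 1.45 for basal to intermediate nuclei, from 4.73 and 2.60. Gjb6 fell to 4.15 and 0.66, from 5.12 and 0.89. Ocln moved to -0.088 for basal to marginal and 3.91 for marginal to intermediate nuclei, from -0.57 and 5.49. Marveld2 moved to -2.38 and 4.45, from -3.58 and 6.80, both bounds set by the floor of 3 UMIs because the lower class had 0 UMIs. With only the barcodes found in both matrices, Gjb6 was 5.51 for basal to marginal and Ocln 6.19 for marginal to intermediate nuclei in MethFix. A mitochondrial limit of 5% gave 5.41 and 6.41 for the same ratios. The mean of per-nucleus CPM gave 4.48 for Gjb2 basal to marginal in MethFix, and no upper limit of UMIs gave 5.17 in RNAlater, from 4.87. The cause of these moves was not tested. TMM factors, kept doublets, both other resolutions, junction genes kept for clustering, totals without mitochondrial genes and the RP23-416J8.1-led cluster counted as root left all values within the intervals. Barcodes found in 1 matrix alone were too few for root to spindle in MethFix and for any ratio in RNAlater, with under 10 nuclei in a class. Thinning moved 70 of 98 shares beyond their interval. Drawing nuclei down to 1000 UMIs lowers most shares by design, so this count does not measure how stable they are. No paired analysis was possible because each method is 1 library and no result comes from a test. Leaving out a replicate was not possible for the same reason.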

Other observations

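Outside the 7 classes, nuclei with fibrocyte markers (30 in MethFix, 16 in RNAlater) held Gjb6 at 581 (434 to 762) and 477 (320 to 685) CPM and Gjb2 at 257 (163 to 386) and 197 (102 to 345). Ocln had 2 and 0 UMIs in them. Nuclei with endothelial markers (10 and 6) held Tjp1 at 546 (236 to 1075) and 605 (261 to 1192) on 8 UMIs in each library.

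Clusters without a name also carried junction genes. One led by Tenm2 and Cdh6 (38 and 36 nuclei) had Gjb2 at 46.4 and 65.8 CPM, Ocln at 128 and 103 and no Ildr1 UMI. One led by RP23-416J8.1 (14 and 13 nuclei) held Gjb6 at 316 (184 to 506) and 374 (231 to 571) CPM, with 2 and 1 Gjb2 UMIs. Its log2 balance of Gjb6 over Gjb2 was 3.09 (1.01 to 6.25) and 4.39 (1.76 to 9.76). These clusters were chosen after their values were seen.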
